A study of Saccharomyces cerevisiae with 6 samples.

Results

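Ras2, adenylate cyclase, the subunits of protein kinase A (PKA), the cyclic AMP phosphodiesterases and the stress factors Msn2 and Msn4 form the core of the yeast Ras-PKA pathway. Their transcripts were followed through 9 genes, chosen by name: RAS2, CYR1, TPK2, TPK3, BCY1, PDE1, PDE2, MSN2 and MSN4. These are 9 of the 5449 genes that the arrays named, and each had 1 probe set. Gene expression was measured in transformants of the Saccharomyces cerevisiae strain BY4741, a laboratory haploid of mating type a. Both groups carried a galactose-inducible p110α-CAAX, the PIK3CA-encoded catalytic part of a phosphoinositide 3-kinase from mammals, with a membrane-directing motif at its end. In one group the kinase was active (PI3K), and in the other it carried the inactivating substitution K802R (KD). Both groups were thus set up to make the protein, and its amount in each was not tested. All cultures were grown in raffinose medium and then given 2% galactose for 4 h at 30 °C, and each of the 3 biological replicates per group was put on 1 array. Whether the replicates came from separate transformants is not given in the sources used here.

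In budding yeast, Ras proteins in their GTP-bound form switch on adenylate cyclase, which makes cyclic AMP. Cyclic AMP binds the regulatory subunit Bcy1 and frees the catalytic subunits of PKA, and phosphodiesterases end the signal by breaking cyclic AMP down. Active PKA favours growth and keeps the transcription factors Msn2 and Msn4 out of the nucleus, where they would switch on stress genes. Much of this signalling runs through binding and phosphorylation, which RNA arrays do not measure.

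The values are log2 summaries of probe brightness, on which a difference of 1 is a doubling. Array medians lay between 9.49 and 9.54, and Pearson correlations between pairs of arrays ran from 0.965 to 0.995 over the 5350 genes tested. A single component accounted for 70.4% of the variance left within the groups. On it PI3K 1 and PI3K 3 lay with KD 3 (side A), and PI3K 2 lay with KD 1 and KD 2 (side B). No batch is labelled and this split comes from the expression values, so differences are also given within each side. Each of those rests on 1 KD array in side A and 1 PI3K array in side B. Genes that mark mating type a (MFA1, MFA2, STE2, BAR1 and AGA2) had values of 10.60 to 12.85. Of these 5, 2 had positive and 3 negative differences between PI3K and KD, from -0.39 for MFA2 (limma adjusted p = 0.213) to 0.13 for MFA1. STE3, a receptor gene of the opposite mating type, lay between 6.80 and 8.09 and was 0.85 higher in PI3K (limma adjusted p = 0.145). It was the only listed marker of that mating type with a named probe set. The nutritional marker genes MET17 and URA3, which BY4741 lacks, stayed at or under 4.03 and 3.51. HIS3 and LEU2, whose function this strain also lacks, read 10.96 to 11.23 and 12.14 to 12.65 on the 6 arrays. Whether the plasmids carried these markers is not given in the sources used here.

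PDE1, one of the phosphodiesterase genes, showed the largest difference between the groups among the 9 genes, at 1.63-fold, and TPK2, a catalytic subunit gene of PKA, the next, at 1.36-fold. For these genes all 3 PI3K arrays lay above all 3 KD arrays. The arrays read whole cultures, so a difference in some of the cells and one in every cell cannot be told apart. The other 7 genes had overlapping groups and mean differences between -0.10 and 0.16 on the log2 scale. None of the 9 passed an adjusted p of 0.05 in limma over all genes tested, where 13 of 5350 genes, or 0.243%, did so. At an unadjusted p under 0.05, 2 of the 9 passed, against 14.5% of all genes. The groups did not overlap for 2 of the 9, against 20.7% of all genes, so as a set the 9 genes had about as many separated members as the background. Their median log2 difference was 0.04, with 6 of 9 positive, beside a median of -0.00180 and 49.7% positive over all genes. All 9 were above the filter value of 4 on all 6 arrays, with values from 6.76 to 11.58.

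**Figure D1:**
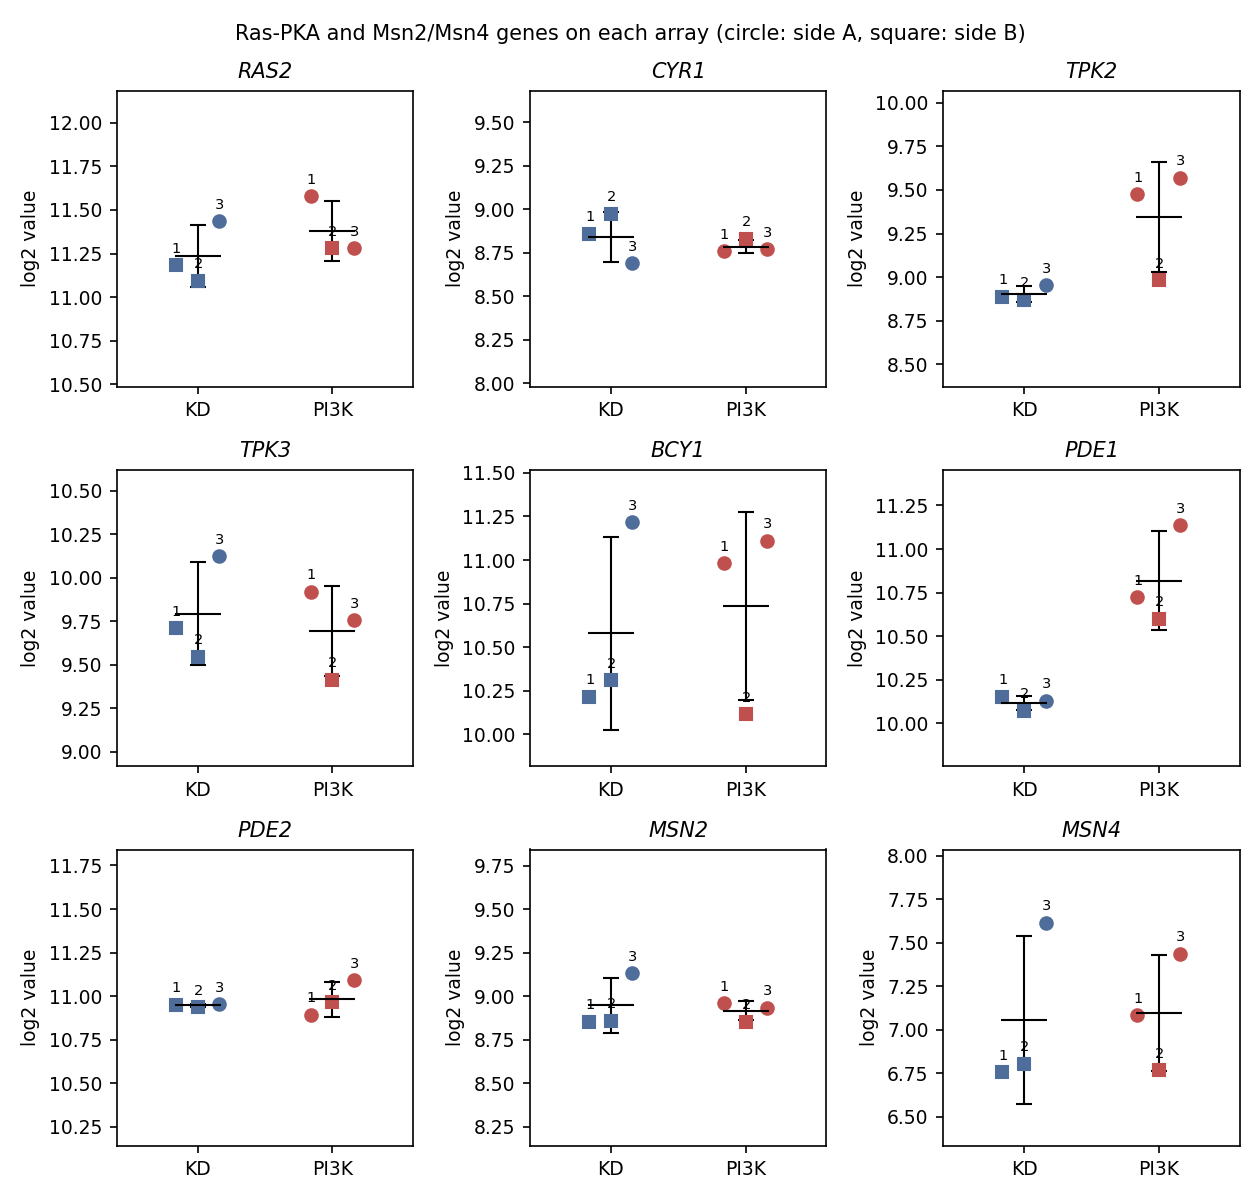
Log2 value of each gene (y axis, the same span of 1.7 in every panel) on the KD and PI3K arrays (x axis), with the replicate number above each point, circles for side A and squares for side B. Horizontal bars are group means and error bars the SD of 3 arrays. The groups are separate for PDE1 and TPK2 and overlap for the other 7 genes.

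RAS2 encodes the GTPase that activates adenylate cyclase, and like the transgene product it ends in a CAAX motif. Its log2 values were 11.58, 11.28 and 11.28 on the PI3K arrays 1 to 3 and 11.18, 11.09 and 11.44 on the KD arrays. PI3K 1 was the highest, but KD 3 lay above the other PI3K arrays, so the groups overlapped. The means were 11.38 ± 0.17 (SD, n = 3) in PI3K and 11.24 ± 0.18 in KD. The log2 difference of 0.14 had a 95% confidence interval from -0.20 to 0.49 (limma adjusted p = 0.741), which covers folds from 0.870 to 1.40.

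CYR1 encodes adenylate cyclase. It stood at 8.76, 8.83 and 8.77 in PI3K and at 8.86, 8.97 and 8.69 in KD. The PI3K values fell inside the KD range, and the interval of the difference ran from -0.33 to 0.22 on the log2 scale around -0.05 (adjusted p = 0.894 in limma). A change of CYR1 transcript above 1.17-fold or below 0.796-fold lay outside that interval.

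Of the PKA genes, TPK2, whose product is the catalytic subunit most tied to filamentous growth, had log2 values of 9.48, 8.98 and 9.57 on PI3K arrays 1 to 3. Its KD values were 8.89, 8.87 and 8.95. The KD arrays were close together, while PI3K 2 lay only just above them and PI3K 1 and PI3K 3 well above. The mean was 9.34 ± 0.32 in PI3K and 8.90 ± 0.04 in KD, a log2 difference of 0.44 (SE 0.17, 95% interval 0.04 to 0.84). The unadjusted p of limma was 0.0356 and the adjusted p = 0.308. Within side A the difference was 0.57 and within side B 0.10.

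TPK3, another catalytic subunit gene, gave 9.92, 9.41 and 9.75 in PI3K and 9.71, 9.55 and 10.12 in KD. The highest value came from a KD array and the lowest from a PI3K array, and the groups overlapped. Its log2 difference was -0.10 (SE 0.20, 95% interval -0.56 to 0.37, limma adjusted p = 0.890). Within sides A and B the difference was -0.29 and -0.21.

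TPK2 and TPK3 were also set against each other on each array. Relative to the KD mean, the log2 ratio of TPK3 to TPK2 was -0.45, -0.46 and -0.71 on the PI3K arrays and -0.07, -0.21 and 0.28 on the KD arrays. The ratio was lower on each PI3K array than on any KD array, by 0.54 on average. An exact two-sided permutation test over arrays gave p = 0.1, the smallest that 3 against 3 arrays allow, and 0.15 after Benjamini-Hochberg adjustment over 3 pairs.

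BCY1 encodes the regulatory subunit that holds PKA inactive in the absence of cyclic AMP. Its values were 10.98, 10.12 and 11.11 in PI3K and 10.21, 10.31 and 11.22 in KD. In each group some arrays were near 10.2 and others near 11.1, so the spread within groups (SD 0.54 and 0.55) exceeded the difference between their means. That log2 difference was 0.16 (SE 0.35, adjusted p = 0.903 in limma), with an interval from -0.68 to 0.99. Folds from 0.625 to 1.98 are therefore not distinguishable for BCY1 on these arrays. Its residual SD of 0.548 was larger than that of 96.4% of the genes tested. Within sides A and B the difference was -0.17 and -0.15, below 0 on both, whereas the pooled value was above 0.

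The pair of phosphodiesterase genes gave unlike values. PDE1 encodes the low-affinity enzyme, which in yeast acts on high levels of cyclic AMP and is itself a PKA substrate. It stood at 10.72, 10.60 and 11.14 on PI3K arrays 1 to 3 and at 10.15, 10.07 and 10.13 on the KD arrays. The KD arrays agreed closely, whichever side they were on, and every PI3K array lay above them, PI3K 3 by the most. The means were 10.82 ± 0.28 in PI3K and 10.12 ± 0.04 in KD, a log2 difference of 0.70 (SE 0.16, 95% interval 0.33 to 1.07, or 1.26- to 2.11-fold). In limma the unadjusted p was 0.00296 and the adjusted p = 0.152, so PDE1 did not pass over all genes. Its difference was larger in size than that of 97.4% of the genes tested. The arrays of side A gave 0.80 and those of side B 0.49, and leaving out each array in turn gave 0.54 to 0.81. With the array side, which was defined from these same values, as a covariate the difference was 0.64 (adjusted p = 0.0572). Over all alternatives the adjusted p of PDE1 ran from 0.00124, with array weights, to 0.509, without KD 2.

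PDE2 encodes the high-affinity phosphodiesterase. Its values were 10.89, 10.96 and 11.09 in PI3K and 10.95, 10.94 and 10.95 in KD. It was the steadiest of the 9 genes, with a range of 0.20 over all arrays and a smaller SD over the 6 arrays than nearly every other gene, only 3.14% of genes being steadier. The log2 difference was 0.04 (SE 0.11, 95% interval -0.21 to 0.29, limma adjusted p = 0.928), so folds above 1.22 or below 0.862 lay outside the interval. Relative to the KD mean, the log2 ratio of PDE1 to PDE2 was 0.66, 0.46 and 0.88 on the PI3K arrays and 0.03, -0.04 and 0.01 on the KD arrays. The mean difference of 0.67 was accompanied by no overlap. The exact permutation test gave p = 0.1, again the smallest possible with 3 against 3, and 0.15 adjusted over the 3 pairs.

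**Figure D2:**
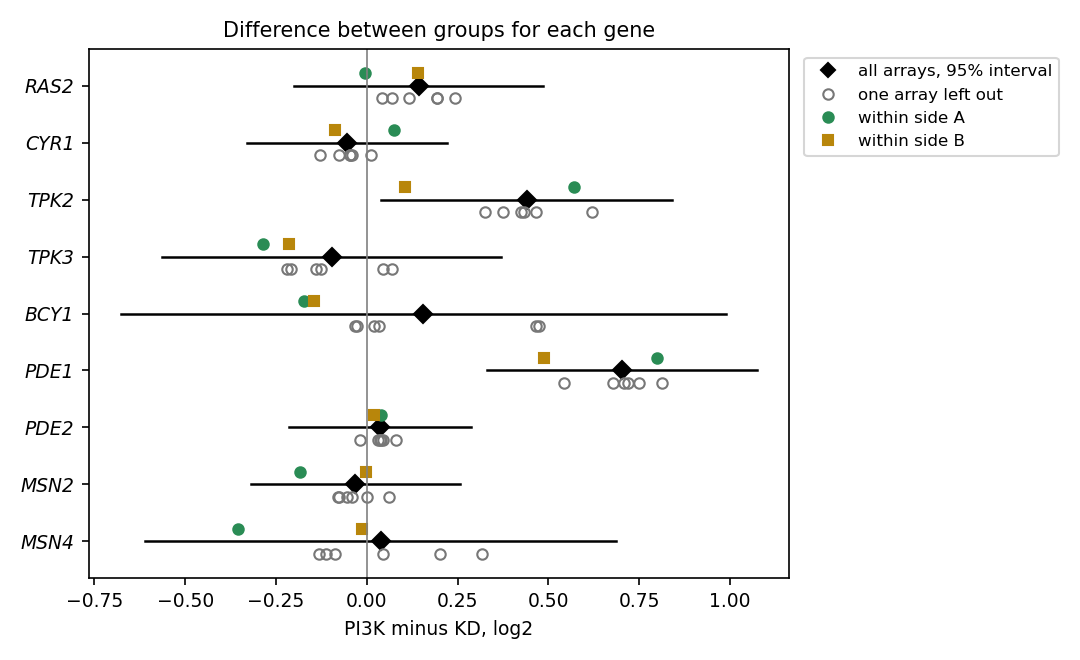
Difference between PI3K and KD in log2 units (x axis) for each gene (y axis). Diamonds and lines are the estimate over all arrays with its 95% confidence interval, open circles the values with one array left out, and filled green circles and ochre squares the values within sides A and B. PDE1 has a difference of at least 0.49 and TPK2 one of at least 0.10 in each setting drawn, while each of the other 7 genes has points on both sides of 0.

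MSN2 and MSN4 encode related zinc finger transcription factors that bind the stress response element. MSN2 is known to be made at a steady level, whereas MSN4 is itself induced by stress. MSN2 had log2 values of 8.96, 8.85 and 8.93 in PI3K and of 8.85, 8.86 and 9.13 in KD. KD 3 was the highest and the remaining 5 arrays lay close together. The difference was -0.03 (SE 0.12, 95% interval -0.32 to 0.26, limma adjusted p = 0.945). Changes above 1.19-fold or below 0.802-fold lay outside the interval.

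MSN4 varied more. It stood at 7.08, 6.77 and 7.44 in PI3K and at 6.76, 6.81 and 7.61 in KD. KD 3 was again the highest, PI3K 3 the next, and PI3K 2 lay beside KD 1 and KD 2. The log2 difference was 0.04 (SE 0.27, 95% interval -0.61 to 0.69, adjusted p = 0.973 in limma), and folds from 0.655 to 1.61 are within that interval. Leaving out KD 3 moved it to 0.32, and leaving out PI3K 3 to -0.13. Relative to the KD mean, the ratio of MSN4 to MSN2 differed by 0.07 between the groups, with an exact permutation p = 0.7 and the same value after adjustment over the 3 pairs.

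For BCY1, MSN4, TPK3 and MSN2, each of the side A arrays lay above each of the side B arrays, and for CYR1 each lay below. Over all genes 15.7% were separated upwards and 21.7% downwards in this way. The sides were defined from these same values, so this is a description without a test. Fitted beside the group, the difference of side A from side B was 0.94 for BCY1, 0.66 for MSN4 and 0.46 for TPK3. That of BCY1 was larger in size than the side difference of 97.8% of genes, and that of MSN4 larger than 92.4%. For PDE1 the side difference was 0.17 and for PDE2 0.02. The group difference of PDE1 was above 0 on both sides, at 0.80 within side A and 0.49 within side B. TPK2 had a side difference of 0.31 and a group difference of 0.34 in the same fit (adjusted p = 0.154). What the sides stand for was not tested.

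**Figure D3:**
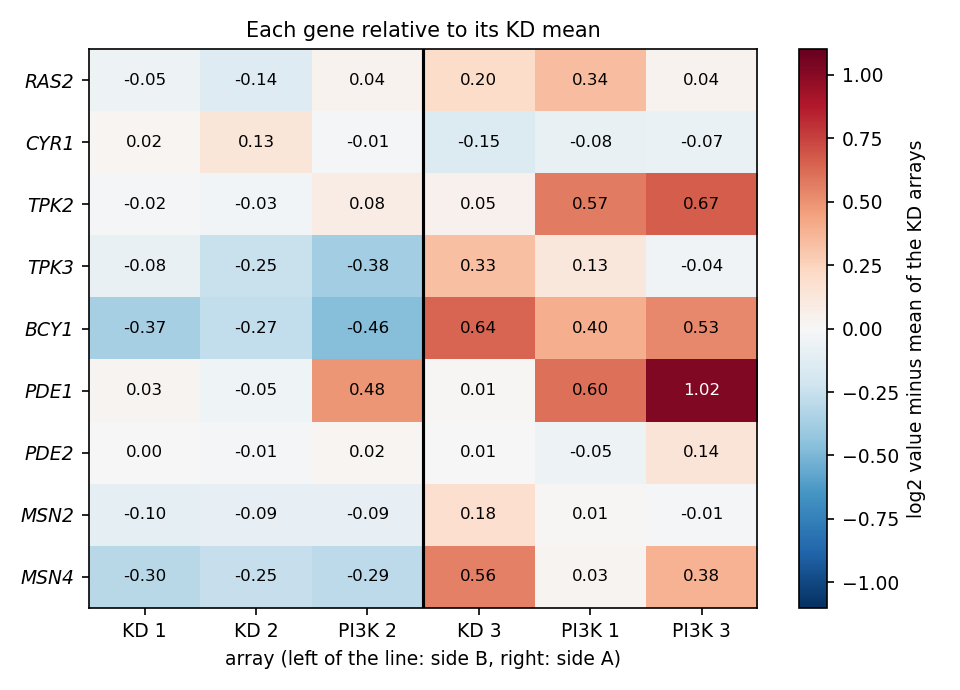
Log2 value of each gene (rows) on each array (columns) minus the mean of the 3 KD arrays, with side B arrays left of the line and side A arrays right of it. BCY1 and MSN4 change colour across the line in both groups, whereas PDE1 is raised on the 3 PI3K arrays of either side and stays within 0.05 of 0 on the KD arrays.

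Genes that act upstream of adenylate cyclase were examined as a list of 12, of which 11 were tested. None passed over all genes, and 1 had an unadjusted p under 0.05 in limma, where 14.5% of all genes did (7.94% of all genes higher and 6.58% lower in PI3K). The list was thus near the background. The list's median log2 difference was 0.11, with 7 of 11 positive. It was 0.013 without PI3K 3, 0.046 without PI3K 1, 0.048 without KD 1 and 0.17 without PI3K 2. TFS1, which encodes an inhibitor of carboxypeptidase Y that also binds the Ras GTPase-activating protein Ira2, was the gene with the smallest p. Its PI3K arrays (11.89, 12.07 and 12.34) lay above its KD arrays (11.68, 11.62 and 11.81). The difference was 0.40 (SE 0.15, adjusted p = 0.274). GPA2, the G protein alpha subunit gene of the glucose-sensing branch, had a difference of 0.26, and SRV2, which encodes an adenylate cyclase-associated protein, one of 0.15. Below 0 were GPB2 (-0.13) and GPB1 (-0.07), which encode kelch proteins that restrain PKA signalling, and IRA2 (-0.03). RAS1, the relative of RAS2, was at 10.41, 9.71 and 10.21 in PI3K and at 9.67, 9.77 and 10.98 in KD. Its difference was -0.03 (SE 0.37), with KD 3 far above the other KD arrays.

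The lipid modification genes act on CAAX proteins, and Ras2 is among their substrates. None of the 7 passed over all genes in limma, where 0.243% of all genes did, and the list's median was 0.08. At an unadjusted p under 0.05, 1 was higher and 1 lower in PI3K, against 7.94% and 6.58% of all genes. SHR5, which with ERF2 encodes the palmitoyltransferase of Ras2, had PI3K values of 9.22, 9.05 and 9.10 against KD values of 8.61, 8.54 and 8.87. The groups were apart, with a log2 difference of 0.45 (SE 0.13, limma adjusted p = 0.209), and ERF2 had one of 0.28 with overlapping groups. RAM1, the beta subunit gene of farnesyltransferase, lay the other way, at 8.97, 8.76 and 8.64 in PI3K and 9.12, 9.10 and 9.20 in KD. Its difference was -0.35 (SE 0.12, adjusted p = 0.272), while its partner gene RAM2 stood at 0.18. STE14, the carboxyl methyltransferase gene of this route, had a difference of -0.13. The median of this list moved to 0.29 without KD 3, 0.17 without PI3K 2 and 0.13 without PI3K 3, and to -0.03 without PI3K 1 or without KD 1. Without KD 2 it was 7.37e-05.

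Among 21 tested genes for kinases, transcription factors and modifiers around PKA, 11 had positive and 10 negative differences, with a median of 0.03. None passed over all genes, and 2 had an unadjusted p under 0.05 in limma, both lower in PI3K. With 6.58% of all genes lower at that threshold and 14.5% past it in either direction, this too was near the background. The list median lay between -0.028 without PI3K 2 and 0.042 without KD 3. FLO8, a factor of filamentous growth and flocculation that carries an inactivating mutation in strains of this background, stood at 8.01, 7.95 and 7.98 in PI3K and at 8.30, 8.35 and 8.31 in KD. Both groups were tight and did not overlap, and the difference was -0.34 (SE 0.10, adjusted p = 0.213 in limma). SCH9, a growth-promoting kinase that works in parallel with PKA, gave 9.77, 9.38 and 9.59 in PI3K and 9.82, 10.05 and 10.15 in KD. These groups were apart by a narrow margin, with a difference of -0.43 (SE 0.15, adjusted p = 0.269). WHI2, whose product helps to activate Msn2, differed by -0.23. On the positive side BMH2, a 14-3-3 protein gene, had a difference of 0.45 with overlapping groups. IGO1, a target of the Rim15 kinase, had one of 0.18 and RIM15, a kinase gene whose product PKA inhibits, one of 0.16.

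Stress genes listed by name as targets of Msn2 and Msn4 were compared with the transcripts of the factors themselves. Control of the listed genes by other factors was not tested. Differences were above 0 for 30 of 32 genes, against 49.7% of all genes. Their median was 0.40 on the log2 scale, beside -0.00180 over all genes. None of the 32 passed an adjusted p of 0.05 in limma, where 0.243% of all genes did. At an unadjusted p under 0.05, 10 passed, all higher in PI3K, against 7.94% of all genes in that direction. With the array side as a covariate 3 of the 32 passed over all genes, where 185 of the 5350 genes tested did so. The 3 were HSP42 (limma adjusted p = 0.00662), NQM1 (0.0412) and TPS2 (0.0477). The sides were defined from these same values, so these adjusted p-values are given as a description. For 14 of the 32 the PI3K arrays lay wholly above the KD arrays, against 10.2% of all genes in that direction. HSP42, a small heat shock protein gene, had the smallest p (1.41, adjusted p = 0.0998), before NQM1 (1.67), a transaldolase gene, and TPS2 (0.86), which encodes the phosphatase of trehalose synthesis. The glycogen phosphorylase gene GPH1 and GAC1, a phosphatase subunit gene of glycogen control, were the 2 genes below 0, at -0.20 and -0.04. HSP12 encodes a small membrane-associated stress protein and is often used as a reporter of Msn2 and Msn4. It stood at 14.16, 14.23 and 14.40 in PI3K and at 14.19, 14.24 and 14.16 in KD, near the top of the arrays. CTT1, the cytosolic catalase gene, was at 9.74, 9.72 and 11.35 in PI3K and at 9.80, 10.26 and 9.96 in KD, with PI3K 3 alone above the rest.

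This last array stood out for the list. PI3K 3 held the highest of the 6 values for 24 of the 32 stress genes, where it did so for 16.0% of all genes. KD 3 held the lowest value for 16 of the 32, where it did so for 1693 of all 5350 genes. Relative to the KD mean, PI3K 1 had a list median of 0.16, PI3K 2 one of 0.17 and PI3K 3 one of 0.79. The list's median difference was 0.18 without PI3K 3 and 0.27 without KD 3. Side A alone, with KD 3 as its only KD array, gave a list median of 0.60 and side B alone one of 0.10. PDE1 was likewise highest on PI3K 3, at 1.02 above its KD mean, against 0.60 on PI3K 1 and 0.48 on PI3K 2. MSN2 on PI3K 3 was at -0.01 relative to its KD mean. MSN4 was at 0.38 there but at 0.56 on KD 3, where the stress list's median was -0.07. High MSN4 values occurred on an array with a raised stress list and on one without, and a link between them was not tested.

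**Figure D4:**
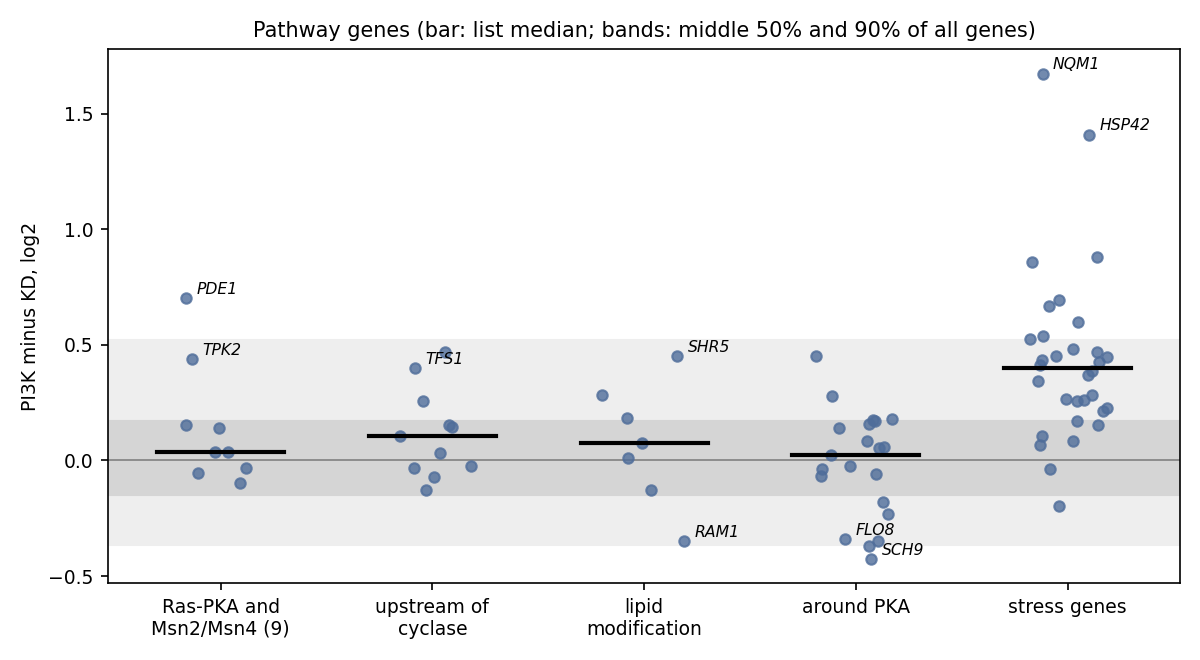
Difference between PI3K and KD in log2 units (y axis) for each gene of 5 groups (x axis): the 9 Ras-PKA and Msn2/Msn4 genes, genes upstream of adenylate cyclase, lipid modification genes, genes around PKA and stress genes. Black bars are list medians and grey bands hold the middle 50% and 90% of all genes tested. The stress genes have a median of 0.40, the other groups 0.11 or less, and PDE1 lies above the wider band.

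The patterns of the 3 most variable members over the 6 arrays were compared with those of all other genes tested by Pearson's r, as a description. Over 6 arrays many genes reach a high r. BCY1 had an r above 0.9 with 363 genes, MSN4 with 211 and PDE1 with 165. Most like BCY1 were HEK2 and NOG2 (r = 0.999 for each), and most like MSN4 were DFG16 (0.999) and YMC1 (0.996). Most like PDE1 were XBP1 (0.998) and FBP26 (0.998), which had log2 differences of 0.16 and 0.93 between the groups. The array sides are part of the patterns of BCY1 and MSN4, and the group difference is part of that of PDE1. Among the 9 genes themselves, BCY1 and MSN4 had an r of 0.94 and PDE1 and TPK2 one of 0.90, while PDE1 and MSN2 had one of -0.06.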

How the data were processed

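Per the labels' protocols, biotin-labelled total RNA of 6 cultures was hybridised to Affymetrix arrays. Per the submitters' processing notes, the authors used GCRMA (no version given), which corrects background, normalises and summarises probe sets. The deposited values were taken as log2 from their range, since no source states the log base. Of 5716 probe sets, 5498 had 1 gene, 0 several and 218 none. Gene symbols were updated by gene identifier (all 5498 matched). The highest-mean probe set was kept for each of 5449 genes, and 5350 that reached a log2 value of 4 on 3 or more arrays were tested.

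The groups were compared with limma 3.58.1 under R 4.3.3 (eBayes on group means, two-sided, 4 residual and 2.97 prior degrees of freedom), with Benjamini-Hochberg adjustment over 5350 genes. The same test was also run on simulated data, whose outcome is not given here and is not used for any result. The number of arrays limits the precision. Named pathway genes are the 3 with the smallest p in each direction per list, with RAS1, HSP12 and CTT1 whatever their values. An item that fell under this rule is not reported here. The members, lists, side split and alternatives were chosen with earlier results of these data known. Alternatives were other filters, normalisations, variance priors, array weights, a replicate block, the array side, mean probe sets and leaving out each array. Figures used matplotlib 3.10.9 in Python 3.11.15.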

Additional observations from a re-analysis of the deposited data

How the results depend on the processing

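Over 135 refits of the 9 genes under the alternatives, 119 kept the sign of the difference and 16 did not. The other filters, variance prior, replicate block and mean probe sets cannot move these estimates, so their refits kept the sign by construction. Of all refits, 6 passed an adjusted p of 0.05 in limma, all with array weights. That setting gave PI3K 1 and KD 2 weights of 5.02 and 5.75 and KD 3 one of 0.154, its fit stopped before reaching its tolerance, and it called 2808 genes instead of 13. With it RAS2 stood at 0.41 (adjusted p = 0.00527), CYR1 at -0.19 (0.0323), TPK2 at 0.59 (0.00125), BCY1 at 0.64 (0.00629) and PDE1 at 0.68 (0.00124). TPK3 (0.29, adjusted p = 0.0337), PDE2 (-0.017) and MSN2 (0.087) changed sign, and the medians of the lipid modification and stress lists moved to 0.36 and 0.16. The array side as a covariate let 185 genes pass, and BCY1 (-0.16), MSN4 (-0.18) and the MSN4 to MSN2 ratio (-0.090) then changed sign. Quantile normalisation put MSN4 at -0.00846. Leaving out single arrays, called genes ranged from 0 to 6, and signs changed for CYR1 (-0.13 to 0.013), TPK3 (-0.22 to 0.068), BCY1 (-0.032 to 0.47), PDE2 (-0.018 to 0.080), MSN2 (-0.079 to 0.060), MSN4 (-0.13 to 0.32) and the MSN4 to MSN2 ratio (-0.091 to 0.26). The lipid modification list ranged from -0.033 to 0.29. PDE1 (0.54 to 0.81), TPK2 (0.33 to 0.62) and RAS2 (0.04 to 0.24) stayed above 0. The cause of these moves was not tested.

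Replicate numbers matched the arrays only in part. The residual correlations of same-numbered arrays were -0.49, 0.48 and 0.39, and 2 of 6 arrays correlated best with their own number. The arrays numbered 2 lay on side B and those numbered 3 on side A, while PI3K 1 lay on side A and KD 1 on side B. Whether same-numbered arrays were handled together was not tested. With a replicate block 40 genes passed instead of 13, and none of the 9 did.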
